A study of Mus musculus with 70 samples.

Results

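Interferon-stimulated genes are genes whose transcription is turned on when a cell senses interferon. The 37 genes described here are known interferon-stimulated genes, taken by gene symbol from a table of 24423 genes. They were followed in the lungs of 70 male mice of the strain 129S-Slc26a4tm1Erg/AjgJ that were either homozygous wildtype or homozygous knockout for Slc26a4, the gene of the epithelial anion exchanger pendrin. At about 3 months of age the mice breathed either air or air with 15 mg/m3 of crystalline silica (Min-U-Sil 5) in a whole-body chamber for 6 hours a day on 4 days, and the lungs were taken 1 day, 3 months or 9 months after the exposure. This gave 12 groups of genotype, exposure and time, 10 of them with 6 mice and 2 (wildtype air and wildtype silica at 9 months) with 5. Total RNA of the whole lung was depleted of ribosomal RNA and sequenced, and each value below is a read count for 1 gene in 1 mouse, or that count as CPM (counts per 1000000 counts of the library, after scaling between libraries). The knockout allele was present in every cell and throughout life. In whole lung, a change in the number of cells that carry a transcript and a change of RNA per cell cannot be told apart.

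As background, type I interferons (interferon alpha and beta) bind a receptor whose signal assembles the factor ISGF3, which includes the products of Stat2 and Irf9 and binds a DNA element called the interferon-stimulated response element (ISRE). Interferon gamma acts through another element, the gamma-activated site (GAS). The induced genes include RNA sensors, proteins that bind viral RNA, GTPases that act on viruses or on vacuoles holding microbes, and IRF7, which raises further interferon production. In the lung they are known from viral infection, and macrophages, epithelium, neutrophils and endothelium can all express them.

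The members belong to 8 role groups. These are the 3 Ifit genes (Ifit1, Ifit2, Ifit3), whose proteins bind viral RNA, and the ISG15 system of 3 genes (the ubiquitin-like Isg15, its protease Usp18 and its ligase Herc6). They also include the transcription factors Irf7, Irf9 and Stat2, the 5 oligoadenylate synthetase genes (Oas1a, Oas2, Oas3, Oasl1, Oasl2), the GTPase genes Mx1 and Mx2, and 5 nucleic acid sensors. Those sensors are Ddx58 (RIG-I), Ifih1 (MDA5), Dhx58 (LGP2), the kinase Eif2ak2 (PKR) and Zbp1. A further 10 genes are other antiviral or interferon-induced genes, and 6 encode guanylate-binding proteins and immunity-related GTPases (Gbp2, Gbp3, Iigp1, Igtp, Irgm1, Ifi47). All 37 were located in the mouse genome (GRCm38, GENCODE annotation). The 3 Ifit genes lie together on chromosome 19 (Ifit2 at chr19:34550694-34576419, Ifit3 at chr19:34583531-34588731, Ifit1 at chr19:34640871-34650009), and Rsad2 (chr12:26442746-26456452) and Cmpk2 (chr12:26469204-26479837) are neighbours on opposite strands. Isg15 is at chr4:156199424-156200818. For 24 members no exon is shared with another annotated gene. On the same strand, 6 share exons with another gene. They are Igtp (Irgm2), Irf9 (Rnf31), Ifi47 (Olfr56), Herc6 (Gm45193), Rtp4 (Gm45338) and Parp14 (Gm49730). On the opposite strand, 8 do, namely Irf7 (Phrf1), Usp18, Oasl1, Dhx58, Eif2ak2, Ifi35, Gbp2 and Ifi47. The counts of all these members are less certain, including some called with silica below.

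Promoters of 28 members were found in RefSeq (build GRCm38.p6). The ISRE core, searched as GAAANNGAAA and its complement TTTCNNTTTC from 250 bases before to 50 bases after the transcription start, was present in 16 of the 28 members, and in 17 of their 32 promoter windows (53.1%). Of all 32851 promoter windows of the same length, 3.44% held it. The GAS core TTCNNNGAA, whose letters can overlap those of the ISRE core, was in 6 of the 28 members and in 8.3% of all windows, and 4 members (Bst2, Eif2ak2, Igtp, Oas1a) held both. The 250 bases upstream of the starts of Ifit1, Ifit3 and Isg15, 3 members that rose with silica at 1 day and hold more than 1 match, are given 5′ to 3′ on the strand of the gene, with the ISRE core matches in capitals.
Ifit1 (chr19:34640639-34640888, forward strand): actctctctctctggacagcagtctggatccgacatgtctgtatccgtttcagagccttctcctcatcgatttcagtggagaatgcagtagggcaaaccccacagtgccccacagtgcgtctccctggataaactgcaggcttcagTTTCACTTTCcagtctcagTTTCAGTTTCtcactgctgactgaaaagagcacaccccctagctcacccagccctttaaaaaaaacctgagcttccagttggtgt
Ifit3 (chr19:34583279-34583528, forward strand): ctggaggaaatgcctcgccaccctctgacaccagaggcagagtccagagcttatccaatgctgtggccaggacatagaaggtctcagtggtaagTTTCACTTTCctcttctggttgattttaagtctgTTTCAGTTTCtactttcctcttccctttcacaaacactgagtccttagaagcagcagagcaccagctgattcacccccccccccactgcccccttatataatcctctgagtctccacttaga
Isg15 (chr4:156200819-156201068, reverse strand): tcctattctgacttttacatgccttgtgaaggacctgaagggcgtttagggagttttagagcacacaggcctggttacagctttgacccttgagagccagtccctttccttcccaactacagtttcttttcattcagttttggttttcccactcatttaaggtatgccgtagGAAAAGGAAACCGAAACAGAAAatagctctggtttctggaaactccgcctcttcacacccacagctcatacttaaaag
Ifit1 holds matches that begin 104 and 85 bases before its start, and Ifit3 holds them at 156 and 122 bases before its start. In Isg15, 3 matches begin 78, 72 and 66 bases upstream and overlap, so that they appear as 1 run of capitals. A match is a description of these letters and does not show that a factor binds there.

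The libraries held 802478 to 5596318 counts, with a median of 2183481.5, and 32 of the 37 members had at least 1 count in every library. The other 5 (Isg15, Oas1a, Oas2, Oas3, Oasl1) had libraries at 0, which allows up to 3 counts, or 0.536 to 3.74 CPM depending on the library. Slc26a4 itself was read in every group, as 4.31 to 12.8 CPM in wildtype air lungs and 0.983 to 3.24 in knockout air lungs at 1 day. Knockout lungs were below wildtype lungs of the same exposure and time without overlap, except in air at 9 months. There, knockout air mouse 4 had 50.5 CPM of Slc26a4 against at most 35.7 in any other knockout library, and wildtype air mouse 5 had 72.6 CPM (mouse numbers are names only). Knockout air mouse 4 and knockout air mouse 5 (16.4 CPM) thus overlapped the wildtype air libraries of that age (6.30 to 72.6 CPM). Knockout silica lungs also had more Slc26a4 than knockout air lungs at 1 day, at 6.01 to 20.4 CPM. The genotype label of knockout air mouse 4 is in doubt, but whether it is wrong was not tested. Wildtype air mouse 5 was another air library of that age with unusual values. All labels were kept. The counts do not separate the deleted part of Slc26a4 from the rest of the gene. Knockout air mouse 4 and wildtype air mouse 5 also had the highest counts of Chil3, a macrophage and airway chitinase-like gene, at 6432 and 7844 CPM. Results at 9 months are therefore also given without the 3 air mice of that age with the most Chil3 (wildtype air mouse 5, knockout air mice 4 and 5), a choice made after the data were seen. The labels used here name no batch.

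At 1 day after exposure, 18 of the 33 interferon-stimulated genes tested rose in silica over air lungs with both genotypes in 1 comparison, and 5 rose in each genotype alone. Averaged over the 37 genes as log2(CPM + 1), the level ran from 3.82 to 4.00 with a median of 3.89 in wildtype air lungs and from 4.02 to 4.59 with a median of 4.19 in wildtype silica lungs. The silica mice did not spread evenly, since 3 lay at 4.02 to 4.03 and 3 at 4.35 to 4.59. In knockout lungs the mean level ran from 3.72 to 4.20 (median 4.02) in air and from 4.07 to 4.64 (median 4.40) in silica. The wildtype groups did not overlap and the knockout groups did.

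**Figure D1:**
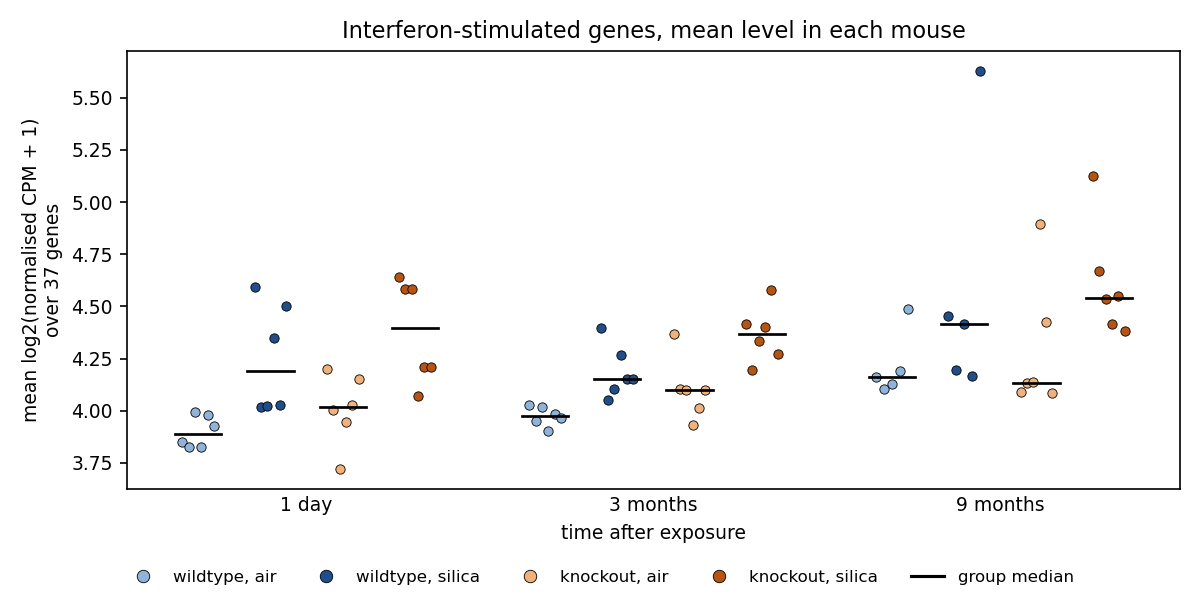
Mean level of the 37 interferon-stimulated genes in each of 70 mice, as the mean of log2(normalised CPM + 1), by time after exposure; points are mice and bars are group medians. Wildtype silica mice at 1 day (4.02 to 4.59) lie above all wildtype air mice (3.82 to 4.00), and at 9 months 1 wildtype silica mouse reaches 5.63.

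Of the 37 members, 33 had enough counts to be tested at 1 day, and Oas1a, Oas2, Oas3 and Oasl1 did not. With both genotypes in 1 comparison, 18 of the 33 (54.5%) rose in silica lungs and none fell, whereas 4.59% of the 12558 genes tested were called, 3.54% as higher and 1.04% as lower (edgeR quasi-likelihood test, Benjamini-Hochberg adjusted p under 0.05). The median log2 difference of the 33 was 0.34, with a range of 0.03 to 1.20, beside a median of 0.00 for all genes. All 33 lay above 0, as did 48.7% of all genes tested. Leaving out each of the 24 libraries in turn gave 14 to 18 called members, and 13 of the 18 were called in every such fit. The 5 others were Mx2, Herc6, Zbp1, Irf7 and Isg15, whose adjusted p then reached up to 0.116 (edgeR).

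Ifit1 changed more than any other member tested. Its CPM ran from 8.13 to 14.2 (median 10.6) in wildtype air lungs and from 15.0 to 35.5 (median 22.3) in wildtype silica lungs. In knockout lungs the values were 10.12 to 15.54 (median 13.52) in air and 17.7 to 44.9 (median 31.3) in silica. Every silica mouse was above every air mouse of its genotype. The log2 difference was 1.20 ± 0.15 (SE, 24 mice; adjusted p = 3.09e-07, edgeR). Ifit3 lies between Ifit2 and Ifit1 on chromosome 19. It ran from 24.4 to 29.3 CPM (median 26.1) in wildtype air and from 34.0 to 52.8 (median 46.7) in wildtype silica lungs, again without overlap. In knockout lungs Ifit3 ran from 27.8 to 49.2 CPM in air and from 39.7 to 65.5 in silica, so those groups overlapped, and the joint difference was 0.68 ± 0.09 (adjusted p = 4.3e-06, edgeR). Ifit2, which lies in the same stretch of chromosome 19, did not pass, with a difference of 0.18 and an adjusted p of 0.392 (edgeR).

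In the ISG15 system, Isg15 itself had few counts. Its CPM ran from 1.46 to 3.61 in wildtype air and from 1.10 to 7.51 in wildtype silica lungs, and from 0 to 4.66 in knockout air and from 3.10 to 9.94 in knockout silica lungs. The groups overlapped in both genotypes, and the joint log2 difference was 1.08 ± 0.30 (adjusted p = 0.0248, edgeR). The ligase gene Herc6 rose by 0.33, and the protease gene Usp18 did not pass at 0.41 (adjusted p = 0.177, edgeR). Among the transcription factors, Irf7 rose by 0.53 ± 0.14 (adjusted p = 0.0241, edgeR), while the ISGF3 subunit genes Irf9 and Stat2 did not pass, at 0.23 and 0.09. Of the oligoadenylate synthetase genes, which make the activator of RNase L, only Oasl2 was tested, and it rose by 0.59 ± 0.13. Both Mx genes rose, Mx1 by 0.93 ± 0.21 and Mx2 by 0.76 ± 0.23.

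Of the 5 nucleic acid sensors, 4 rose. Ddx58, the RNA sensor RIG-I, ran from 72.7 to 85.3 CPM in wildtype air lungs and from 93.7 to 120.6 in wildtype silica lungs without overlap, and its joint log2 difference was 0.39 ± 0.08 (adjusted p = 0.000897, edgeR). The kinase gene Eif2ak2 rose by 0.46 ± 0.10, Ifih1 by 0.33 ± 0.08 and Zbp1, a sensor of left-handed nucleic acid, by 0.74 ± 0.21. Dhx58 did not pass (0.34, adjusted p = 0.425, edgeR). Among the 10 other antiviral genes, 4 rose. They were Ifi44 (0.99 ± 0.25), the chaperone gene Rtp4 (0.73 ± 0.18), the secreted glycoprotein gene Lgals3bp (0.43 ± 0.10) and Parp14, an ADP-ribosyltransferase (0.28 ± 0.06). The remaining 6 of that group lay between 0.03 (Rsad2) and 0.19 (Xaf1). Among the guanylate-binding and immunity-related GTPases, 2 of 6 rose.

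Iigp1 was the GTPase with the larger change. Its CPM ran from 10.6 to 18.5 (median 15.0) in wildtype air lungs and from 20.5 to 44.2 (median 30.3) in wildtype silica lungs. In knockout lungs it ran from 14.8 to 39.3 (median 22.1) in air and from 19.2 to 62.9 (median 38.1) in silica. The wildtype groups did not overlap and the knockout groups did, and the joint log2 difference was 0.86 ± 0.16 (adjusted p = 0.000394, edgeR). Gbp2 rose by 0.33 ± 0.07, and Gbp3, Igtp, Irgm1 and Ifi47 did not pass. Of the 14 tested members whose promoter window held the ISRE core, 7 were called at 1 day, with a median difference of 0.33. Of the 11 tested members whose window did not hold it, 5 were called, with a median of 0.23.

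**Figure D2:**
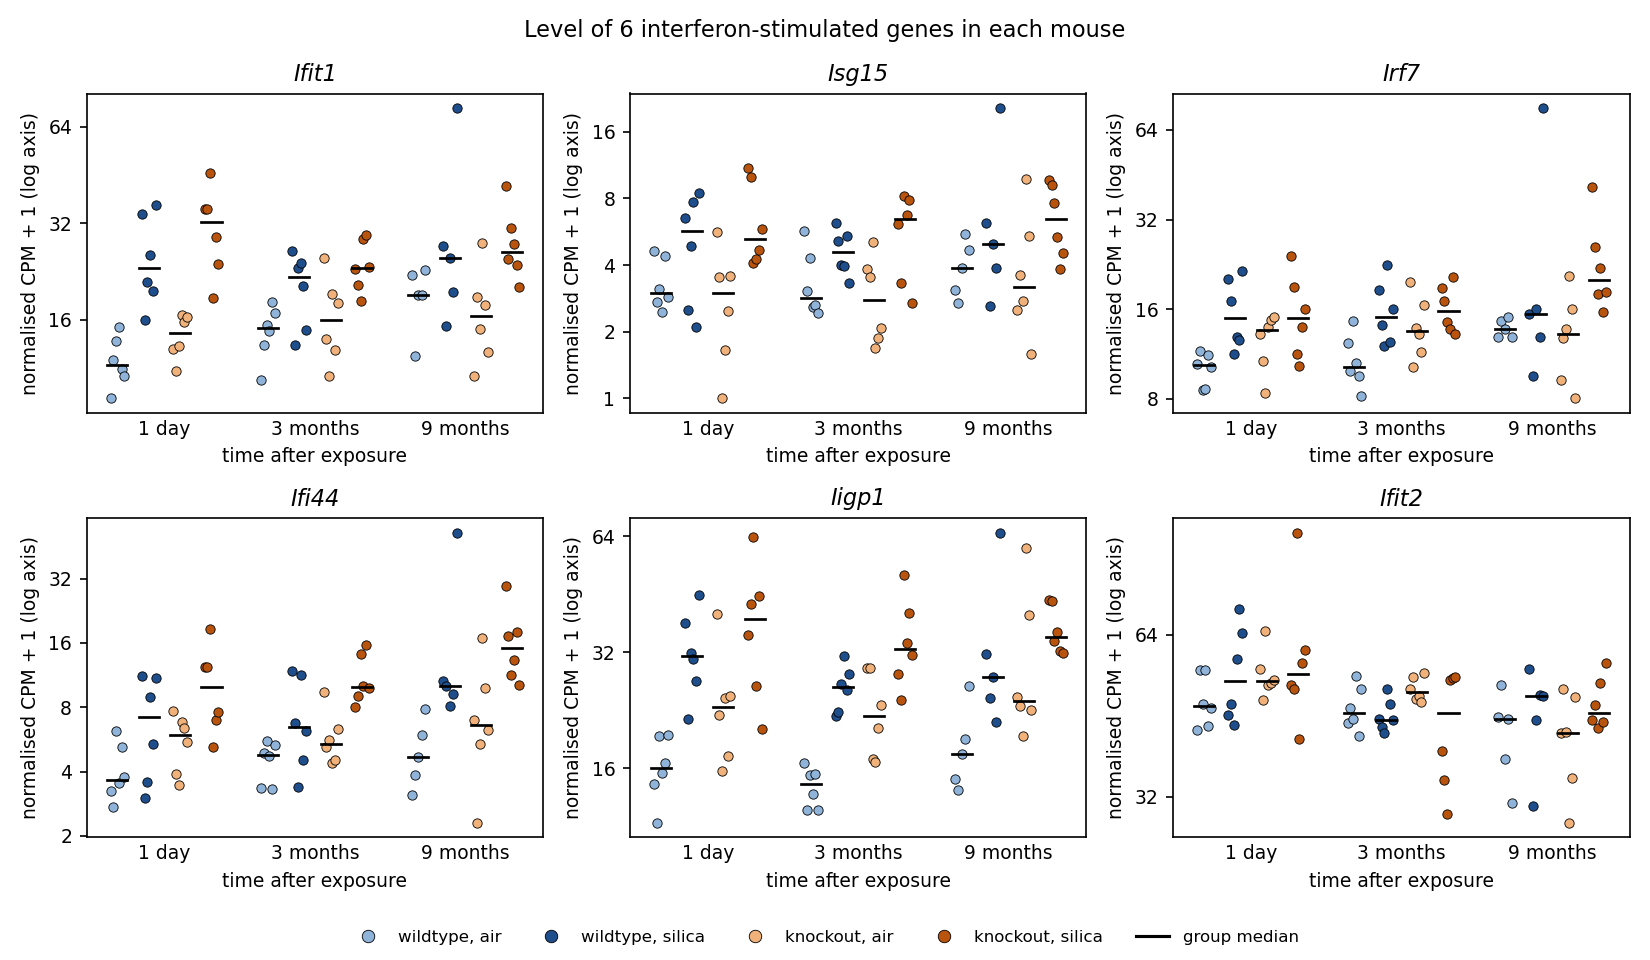
Levels of 6 members in each of 70 mice as normalised CPM + 1 on a log axis, by time after exposure; points are mice and bars are group medians. Ifit1 separates silica from air mice of its genotype at 1 day (15.0 to 35.5 CPM against 8.13 to 14.2 in wildtype lungs). Ifit2, in the same stretch of chromosome 19, overlaps between air and silica in every genotype and time.

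Tested in each genotype alone at 1 day, 5 of the 33 members rose in wildtype lungs (15.2%, against 2.37% of all genes called and 1.95% called as higher) and 5 in knockout lungs (15.2%, against 1.93% and 1.7%). The wildtype genes were Ifit1 (1.17 ± 0.20), Ifit3 (0.77 ± 0.13), Iigp1 (1.08 ± 0.23), Irf7 (0.73 ± 0.20) and Ddx58 (0.44 ± 0.11). The knockout genes were Ifit1 (1.22 ± 0.21), Ifit3 (0.58 ± 0.13), Oasl2 (0.70 ± 0.18), Eif2ak2 (0.58 ± 0.14) and Lgals3bp (0.57 ± 0.14). These log2 differences are from edgeR with their SE, and each genotype had 6 mice in each exposure. Ifit1 and Ifit3 are the genes named in both genotypes. The wildtype count depended on single libraries, with 3 called without wildtype silica mouse 6, 8 without wildtype silica mouse 2 and 10 without knockout silica mouse 3, which entered the fit through the shared estimate of the spread. The knockout count fell to 2 without knockout air mouse 2 and to 3 without knockout silica mouse 1 or 2, and it was 2 with all 70 libraries in 1 fit.

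At 3 months, fewer members passed than at 1 day. With both genotypes together, 11 of the 33 tested (33.3%) rose in silica lungs and none fell, beside 7.95% of 12647 genes called, 4.86% as higher and 3.09% as lower. The 11 were Ifit1, Ifit3, Isg15, Oasl2, Mx1, Ddx58, Eif2ak2, Ifi44, Parp14, Lgals3bp and Iigp1. All 11 (100%) were among the 18 called at 1 day, which is 61.1% of those 18, and the mice of the 2 times are separate. The same share over all genes is not given here. In wildtype lungs alone 2 of the 3 members called at 3 months (Ddx58, Iigp1) were also called at 1 day. In knockout lungs alone 0 of 3 were. The median difference was 0.26, with a range of -0.45 to 0.96 and 29 of 33 above 0, where all genes had 48.2% above 0. Without knockout silica mouse 5 the count was 7, and 8 of the 11 were called whichever of the 24 libraries was left out (Ifit3, Ddx58 and Lgals3bp were not). With all 70 libraries in 1 fit, 2 members passed at 3 months in both genotypes together, 0 in wildtype lungs and 0 in knockout lungs (edgeR).

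Iigp1 had the smallest adjusted p of the members at 3 months. Its CPM ran from 11.48 to 15.52 (median 13.58) in wildtype air lungs and from 20.8 to 30.4 (median 25.1) in wildtype silica lungs, and from 15.6 to 28.2 (median 20.9) in knockout air and from 23.0 to 49.9 (median 31.6) in knockout silica lungs. The wildtype groups did not overlap, and the joint log2 difference was 0.78 ± 0.12 (adjusted p = 1.72e-05, edgeR). Ifit1 ran from 9.40 to 17.2 CPM in wildtype air and from 12.4 to 25.2 in wildtype silica lungs with overlap, and its joint difference was 0.54 ± 0.14 (adjusted p = 0.00957, edgeR). Ifi44, whose protein is known to be induced by interferon in many tissues, ran from 3.39 to 8.46 CPM in knockout air and from 7.02 to 14.6 in knockout silica lungs. Its joint difference was 0.93 ± 0.22 (adjusted p = 0.00465, edgeR).

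The other genes that rose at 3 months did so by between 0.18 (Ddx58) and 0.96 (Isg15) on the log2 scale. Mx1 rose by 0.83 ± 0.20, Eif2ak2 by 0.31 ± 0.07, Oasl2 by 0.38 ± 0.10 and Ifit3 by 0.36 ± 0.11. Ifit2 and Rsad2 had values below 0 that did not pass, at -0.12 and -0.45. Irf7 narrowly failed to pass, at 0.41 with an adjusted p of 0.0599 (edgeR). In wildtype lungs alone 3 members rose (9.09%, against 2.96% of all genes called and 2.24% called as higher), namely Iigp1 (0.90 ± 0.17), Eif2ak2 (0.42 ± 0.10) and Ddx58 (0.28 ± 0.08). In knockout lungs alone 3 rose (9.09%, against 4.8% and 3.02%), namely Iigp1 (0.66 ± 0.16), Isg15 (1.29 ± 0.38) and Ifi44 (1.06 ± 0.29). The wildtype count was 5 without wildtype silica mouse 3 or knockout silica mouse 3. The knockout count was 1 without knockout air mouse 2, 4 or 5 or knockout silica mouse 5.

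**Figure D3:**
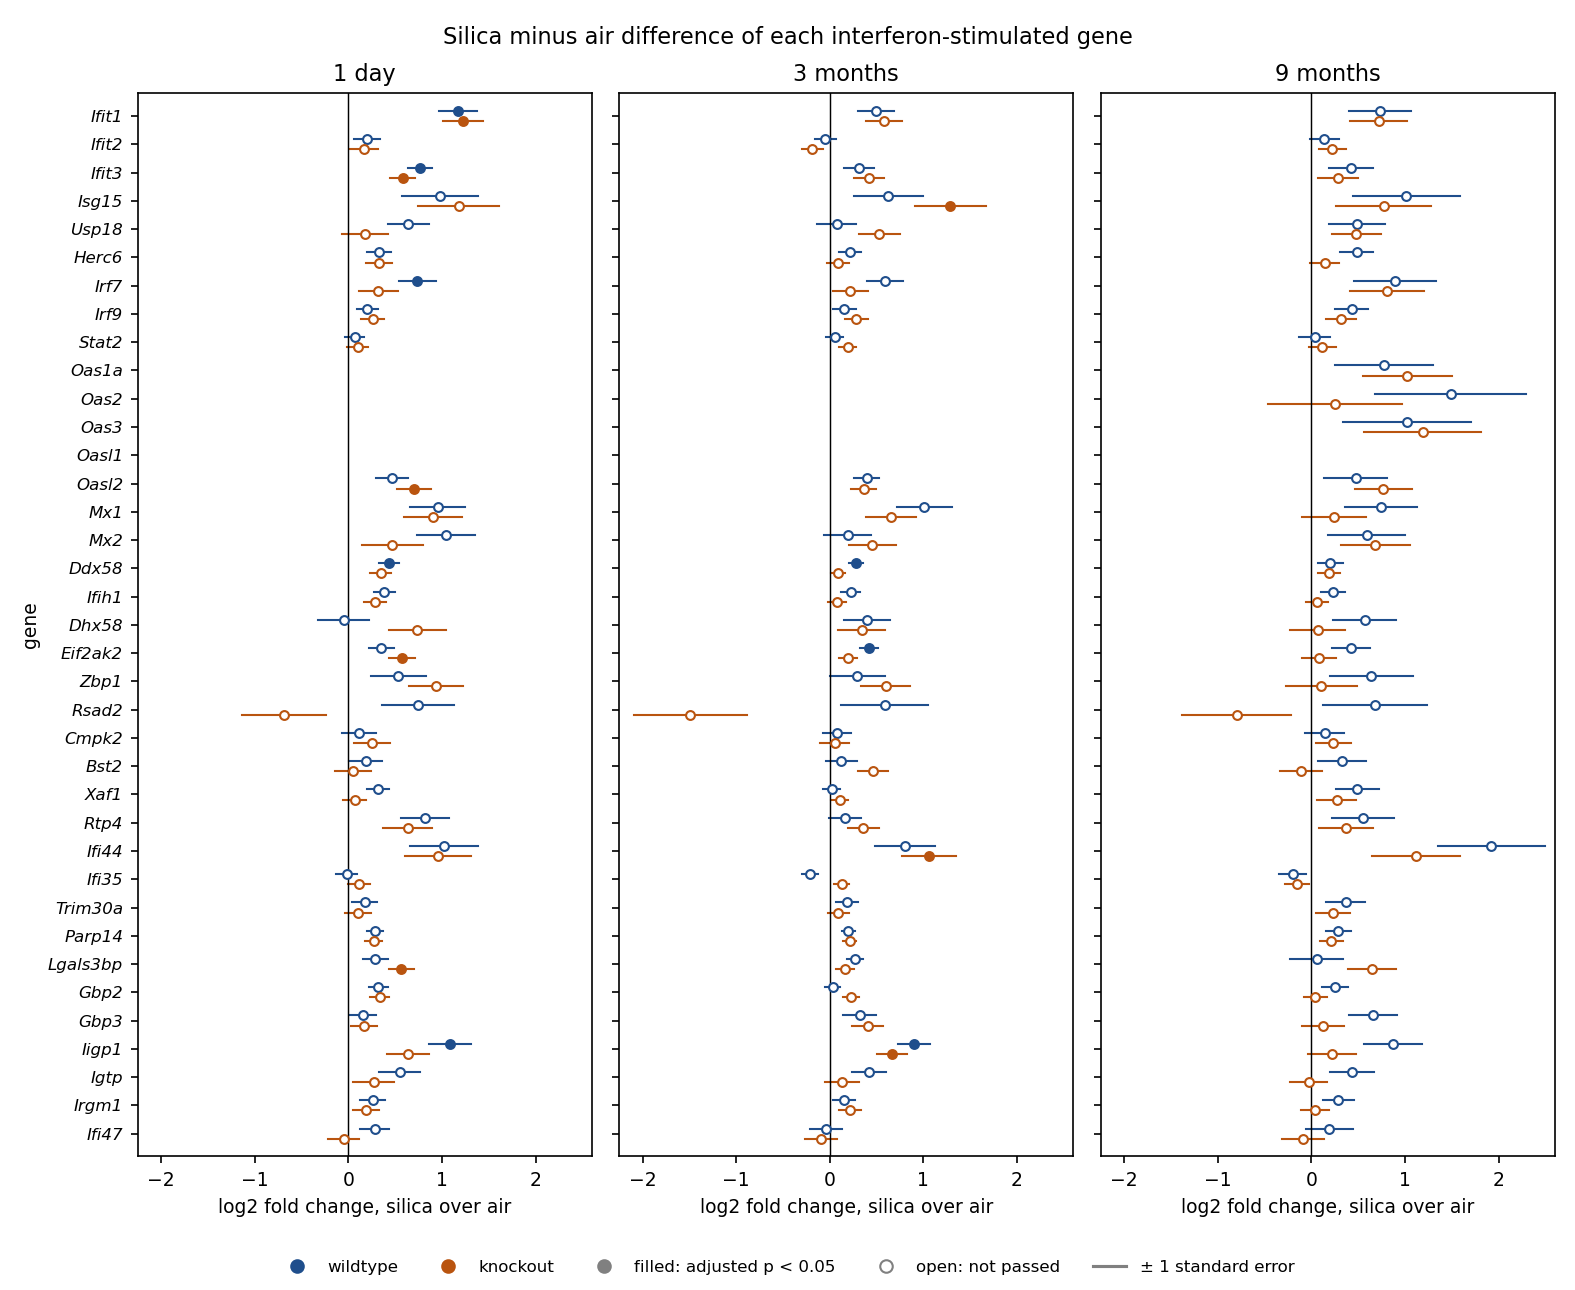
Log2 fold change of silica over air for each member at the 3 times, wildtype and knockout fitted with edgeR; bars are ± 1 standard error, filled points passed adjusted p 0.05, and members not tested at a time have no point. Filled points are found at 1 day (5 in each genotype) and 3 months (3 in each genotype) and none at 9 months, where the error bars are wider.

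At 9 months no member passed in either genotype or in both together, although most values lay above 0. Of 36 members tested (all except Oasl1), 0 were called in wildtype lungs by the edgeR quasi-likelihood test, with 9 at an unadjusted p under 0.05. In knockout lungs 0 were called with 5 at that level, and in both genotypes 0 were called with 19 at that level. DESeq2's Wald test called 0, 0 and 1 member in these 3 comparisons, and edgeR with all 70 libraries in 1 fit called 0, 0 and 5. By adjusted p the background was as sparse, at 0.0234% of all genes called in wildtype lungs, 0.179% in knockout lungs and 0.242% in both. At an unadjusted p under 0.05 (edgeR) there were 875, 1350 and 1199 of the 12826 genes tested, in the same order. The median log2 difference was 0.48 in wildtype lungs (35 of 36 above 0), 0.23 in knockout lungs (31 of 36) and 0.35 in both (34 of 36), where all genes had 48.3% above 0 in both genotypes.

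Ifi44 came nearest to passing at 9 months. In wildtype air lungs its CPM was 2.1, 2.84, 3.70, 4.95 and 6.85, and in wildtype silica lungs it was 9.62, 9.05, 7.09, 8.21 and 51.5. Every wildtype silica mouse was above every wildtype air mouse. In knockout lungs it ran from 1.31 to 15.8 (median 5.63) in air and from 9.12 to 28.7 (median 14.2) in silica, with overlap. The joint log2 difference was 1.52 ± 0.37 (adjusted p = 0.0758, edgeR). Ifit1 in wildtype lungs was 21.0, 11.4, 18.1, 18.1 and 21.9 CPM in air and 26.3, 14.4, 23.9, 18.5 and 72.1 in silica, which overlapped. The joint difference of Ifit1 was 0.73 ± 0.22 (adjusted p = 0.223, edgeR). Irf7 and Iigp1 had joint differences of 0.85 and 0.55 that did not pass.

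Several results at 9 months moved with single mice. In wildtype silica mouse 5, 35 of the 37 members were above all 4 of its group mates, 23 of them more than 2-fold above the median of those mice, and the median fold was 2.45. Its Irf7 was 74.9 CPM against 8.52 to 15.1 in the others, its Isg15 19.5 against 1.60 to 5.18 and its Oas1a 23.3 against 2.88 to 9.25. The exceptions included Rsad2, at 24.4 CPM against 9.45 to 195.9. In knockout air mouse 4, 30 members were the highest of the group, with 11 over 2-fold and a median fold of 1.55, and in knockout silica mouse 1 the figures were 28, 10 and 1.41. Wildtype air mouse 5 was highest for 18 members, 7 of them over 2-fold.

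The summed markers of other cell types also stood apart in these mice. In wildtype silica mouse 5 the monocyte sum was 208.8 CPM against 131.0 to 166.6 in its group mates, the alveolar macrophage sum 2902 against 1083 to 1853 and the endothelial sum 1370 against 1538 to 1769. Apoe made up 82% of the interstitial macrophage sum and Chil3 71.5% of the alveolar macrophage sum over all mice. Ccr2 made up 56.4% of the monocyte sum and Scgb1a1 56.7% of the epithelial sum, and these 2 sums are given with those genes included. Without Apoe the interstitial macrophage sum of this mouse was 145.4 CPM against 75.1 to 103.2, and without Chil3 its alveolar macrophage sum was 460.5, within the 358.2 to 467.8 of the others. Its neutrophil sum, at 194.7, was within 128.8 to 195.8. In knockout air mouse 4 the monocyte sum was 278.9 against 105.8 to 191.9, the interstitial macrophage sum without Apoe 295.1 against 65.4 to 154.0 and the alveolar macrophage sum without Chil3 640.8 against 322.5 to 372.7. Its epithelial sum (15550) and endothelial sum (1093) were the lowest of the group, and its neutrophil sum of 328.1 was within 112.5 to 406.8.

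Knockout silica mouse 1 was the highest of its group for the neutrophil sum (232.8 against 114.7 to 199.5), the monocyte sum (188.8 against 124.7 to 147.9) and the interstitial macrophage sum without Apoe (128.1 against 88.1 to 108.3). Its alveolar macrophage sum without Chil3 was the lowest, at 406.9. In wildtype air mouse 5 the interstitial macrophage sum without Apoe was 114.6 against 68.6 to 83.2 and the alveolar macrophage sum without Chil3 666.3 against 307.4 to 388.7. Its neutrophil sum (105.5 against 121.8 to 174.3) and endothelial sum (939.9 against 1586 to 1751) were the lowest. The part of these cell types in the members' values was not tested.

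Leaving out these mice moved the values at 9 months. Without wildtype silica mouse 5 the median difference of the members fell to 0.12 in wildtype lungs and 0.17 in both genotypes. Without knockout silica mouse 1 the knockout median was 0.15, and without knockout air mouse 4 it was 0.33. In both genotypes Ifi44 passed without wildtype air mouse 5 (adjusted p = 0.0411) and without knockout air mouse 4 (adjusted p = 0.0189), both by edgeR. Without the 3 air mice with the most Chil3, 9 members passed in both genotypes (Ifi44, Ifit1, Iigp1, Irf9, Isg15, Lgals3bp, Oas1a, Oasl2, Parp14). Ifi44 and Iigp1 then passed in wildtype lungs, and Lgals3bp and Oas1a in knockout lungs. All 3 of the left-out mice were also the air mice of that age with the highest mean level of the members. Their levels were 4.49 (wildtype air mouse 5), 4.89 and 4.42 (knockout air mice 4 and 5), against 4.09 to 4.19 in the others. Leaving them out thus lowered the members' level in air, so these counts are not independent of the choice.

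**Figure D4:**
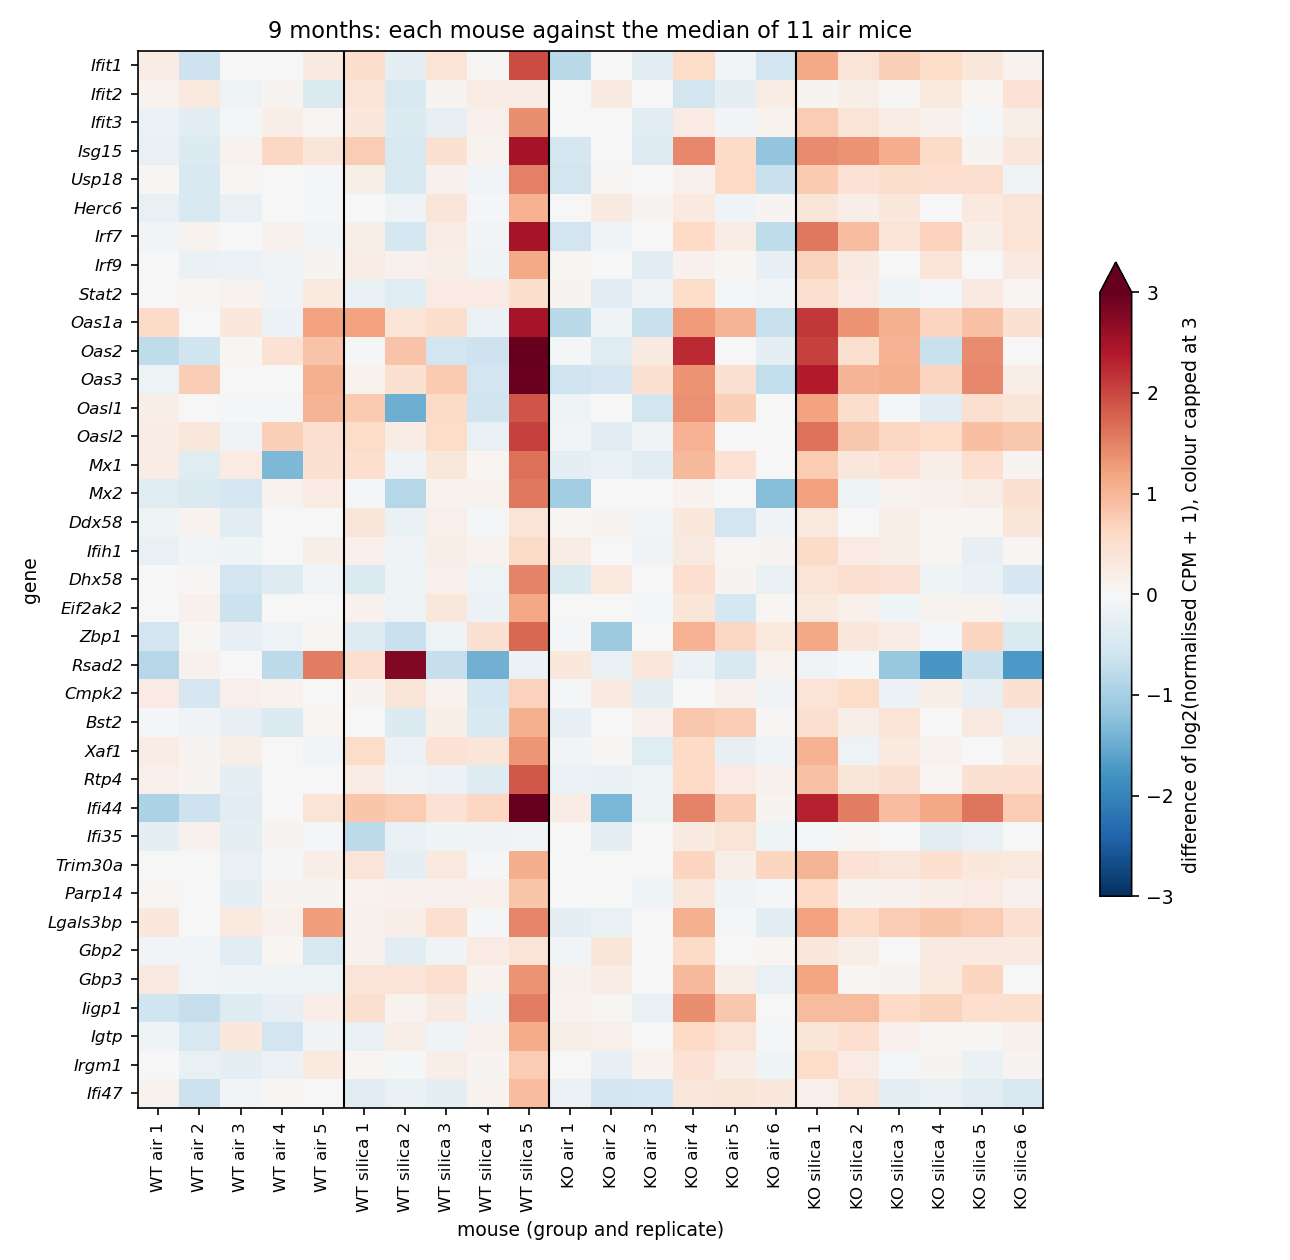
Each of 22 mice at 9 months (columns) against the median of the 11 air mice for each member (rows), as a difference of log2(normalised CPM + 1) with the colour capped at 3. Wildtype silica mouse 5 is above the air median for nearly every member, with Ifi44 at 51.5 CPM, and knockout air mouse 4 and knockout silica mouse 1 are above it for most.

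The question of whether loss of Slc26a4 changed the silica response of these genes was tested as the difference between the genotypes' responses. None of the members was called at any of the 3 times by the edgeR quasi-likelihood test, nor was any gene of the table (0% called at each time). DESeq2's Wald test also called 0 members at each time, and 0, 1 and 2 genes of the whole table. At an unadjusted p under 0.05 there were 1, 2 and 0 members, with medians of -0.05, 0.02 and -0.17 over the members tested. Of all genes, 716 of 12558, 970 of 12647 and 901 of 12826 were at that level (edgeR). The medians moved with single mice. Without wildtype silica mouse 5 the median at 9 months was 0.10, and without knockout air mouse 4 it was -0.07. Without knockout silica mouse 3 the median at 1 day was -0.10. These counts do not show that the responses were equal. For Iigp1 at 1 day the difference of the responses was -0.45 on the log2 scale, with a 95% interval of -1.10 to 0.20.

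Rsad2, which encodes the antiviral enzyme viperin, was the member whose silica values differed most between genotypes. In silica lungs at 1 day its CPM ran from 9.67 to 97.2 (median 22.1) in wildtype and from 5.99 to 27.9 (median 14.6) in knockout mice. At 3 months it ran from 6.29 to 133.4 (median 19.7) and from 5.76 to 24.2 (median 9.02). At 9 months it ran from 9.45 to 195.9 (median 24.4) and from 7.511 to 26.99 (median 14.55). The genotypes overlapped at every time, and the wildtype values had the wider range. In each wildtype silica group 1 mouse stood far above the others. Its raw count was 228 at 1 day (others 15 to 66), 333 at 3 months (21 to 62) and 368 at 9 months (23 to 107). The log2 differences that follow include these single mice, and values without them are not given. The knockout minus wildtype log2 difference in silica lungs was -1.02, -2.09 and -1.78, with adjusted p of 0.585, 0.19 and 1 (edgeR), so it did not pass. Cmpk2, its neighbour, stayed between 9.25 and 27.1 CPM in all silica lungs.

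Between genotypes within one exposure no member passed in air or in silica at any time by edgeR, with 4, 10 and 2 at an unadjusted p under 0.05 in air at the 3 times in order and 4, 10 and 1 in silica. DESeq2's Wald test likewise called 0 members in these 6 comparisons. Of all genes, 0.0478%, 0.142% and 0.0156% were called in air and 0.00796%, 0.174% and 0% in silica. At an unadjusted p under 0.05 (edgeR) there were 1257 of 12558, 1370 of 12647 and 1286 of 12826 genes in air. In silica there were 959, 1297 and 512 of the same totals. Iigp1, the gene of an immunity-related GTPase, was nearest to passing. In air lungs at 3 months, given above as CPM, knockout mice lay just above wildtype mice without overlap (15.61 to 28.19 against 11.48 to 15.52). The knockout minus wildtype difference was 0.74 ± 0.17 (unadjusted p = 0.000205, adjusted p = 0.0605, edgeR). In air lungs it was 0.72 ± 0.24 at 1 day and 0.80 ± 0.30 at 9 months, where the groups overlapped and it did not pass. With the 2 groups alone in the fit, or without the low-count filter, Iigp1 passed at 3 months. It also passed there without wildtype air mouse 1, knockout air mouse 4 or knockout silica mouse 3.

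Across the times, the silica response of the members did not differ at a level that passed. Comparing 3 months with 1 day, 0 of 37 members were called by edgeR with 3 at an unadjusted p under 0.05, and 0 by DESeq2, where 0.0755% of 13252 genes were called. Those 3 were Ifit1 (-0.66), Ifit2 (-0.31) and Ddx58 (-0.21), and 31 of the 37 values lay below 0, with a median of -0.13. Of the 13252 genes, 861 had an unadjusted p under 0.05 (edgeR). Comparing 9 with 3 months, 0 members were called by edgeR, with 2 at that level, and 0 by DESeq2, where 0.732% of all genes were called. Of the 13252 genes, 1802 were at that unadjusted level (edgeR). The median of the members was 0.12 with all libraries and -0.06 without wildtype silica mouse 5.

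In air lungs, 8 members (21.6% of 37) were higher at 9 than at 3 months and none was lower, beside 29.2% of all genes called, 15.7% as higher and 13.5% as lower. They were Oas3 (1.25 ± 0.46), Oas1a (1.05 ± 0.32), Zbp1 (0.66 ± 0.25), Mx1 (0.63 ± 0.25), Usp18 (0.62 ± 0.18), Igtp (0.43 ± 0.16), Lgals3bp (0.42 ± 0.14) and Ifi35 (0.25 ± 0.08). Without wildtype air mouse 5, 2 were called, without wildtype silica mouse 5, which enters through the shared spread, 11, and without the 3 air mice with the most Chil3, 0. In the same comparison all 6 neutrophil markers and 5 of 7 alveolar macrophage markers tested were higher, and all 3 endothelial markers were lower. Their part in the result was not tested, and age, time after exposure and date of collection cannot be told apart. Comparing 3 months with 1 day in air lungs, 0 of 37 members were called by edgeR, with 0 at an unadjusted p under 0.05, and 0 by DESeq2, where 0.113% of all genes were called. Of all genes, 1067 of 13252 were at that unadjusted level (edgeR).

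The interferons themselves were hardly read. Of 10 interferon genes looked for, 9 (Ifna1, Ifna2, Ifna4, Ifna5, Ifnb1, Ifne, Ifnk, Ifnl2 and Ifnl3) had 0 counts in all 70 libraries. Ifng, the gene of interferon gamma, had 17 counts in 16 mice and at most 1.23 CPM in any library. At this depth a difference in interferon transcripts was not detectable. The chemokine gene Cxcl10, a well known interferon target, had 161 counts in 59 mice and Cxcl9 had 89 counts.

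Among the receptor genes, 2 of 6 rose at 1 day in both genotypes together, Ifngr2 by 0.32 and Il10rb by 0.21, and Ifngr2 alone rose at 3 months, by 0.29. Of the signalling genes 2 of 12 rose at 1 day, among them Irf1 by 0.33. At 3 months 7 of 13 rose, among them the kinase gene Jak2 (0.22), the phosphatase gene Ptpn6 (0.37), Irf5 (0.48) and Irf8 (0.34). Of the genes upstream of interferon production 0 of 11 passed at 1 day in edgeR, with 2 at an unadjusted p under 0.05 (Tlr3 0.25, Tmem173 0.33). At 3 months 2 of 10 rose, Tmem173, which encodes STING, by 0.48 and the kinase gene Ikbke by 0.40. Tests of these lists were read against 4.59% of all genes called at 1 day (3.54% as higher) and 7.95% at 3 months (4.86% as higher). At 1 day 2069 of 12558 genes had an unadjusted p under 0.05 (edgeR).

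Of 39 further interferon-stimulated genes tested at 1 day, 7 rose (17.9%, beside 4.59% of all genes called and 3.54% called as higher). They included Slfn9 (0.88), Ifitm1 (0.50), Parp9 (0.37) and Parp12 (0.23). At 3 months 3 of 38 rose, Ifitm1 by 0.72, Slfn2 by 0.43 and Parp9 by 0.25. This share of 7.89% stands beside 7.95% of all genes called and 4.86% called as higher. At 9 months 1 of 40 rose (2.5%, beside 0.242% of all genes called in either direction), Ly6e by 0.39 (adjusted p = 0.0345, edgeR). Of 10 genes known mainly from interferon gamma, Gbp6 rose at 1 day (0.75) and Gbp6 (0.68) and Ciita (0.69), the regulator of MHC class II genes, at 3 months. None of these 10 passed at 9 months, with 5 at an unadjusted p under 0.05 (edgeR), Gbp9 (0.44) and Gbp8 (0.43) having the smallest. Of all genes, 1199 of 12826 were at that level.

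Markers of other cell types moved in the same comparisons. At 1 day, 4 of 6 neutrophil markers rose (Csf3r 0.49, S100a9 0.69, Cxcr2 0.54, S100a8 0.85). Their summed level ran from 65.7 to 95.9 CPM in wildtype air and from 102.2 to 149.2 in wildtype silica lungs, and from 82.5 to 128.8 in knockout air and from 88.4 to 193.9 in knockout silica lungs. Of the interstitial macrophage markers 2 of 6 rose (C1qb 0.57, C1qc 0.52), of the monocyte markers 1 of 5 (Vcan 0.69), and of 7 alveolar macrophage markers 3 rose and 2 fell, among them Marco (1.49) and Siglecf (-0.54). None of 3 plasmacytoid dendritic cell, 5 T and natural killer cell or 4 B cell markers passed, Siglech (0.23), Cd8a (-0.41) and Cd79a (-0.18) having the smallest p of their lists. Plasmacytoid dendritic cells are known as a main source of interferon alpha. Tcf4, which other cells also express, made up 92.9% of their marker sum. Without it the sum ran from 13.0 to 19.2 CPM in wildtype air and from 13.2 to 24.3 in wildtype silica lungs, and from 11.1 to 26.5 and 15.4 to 34.1 in knockout air and silica lungs, with overlap in both genotypes. No marker of these lists was at 0 throughout a group. Their part in the result was not tested.

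At 3 months the markers that rose were 3 of 6 for interstitial macrophages (C1qa 1.11, C1qb 0.99, C1qc 0.98), 1 of 5 for monocytes (Ccr2 0.68) and 1 of 6 for neutrophils (Cxcr2 0.70). Of 7 alveolar macrophage markers 3 rose and 2 fell, among them Marco (1.75) and Siglecf (-1.29), and 3 of 5 epithelial markers fell (Sftpb -0.27, Hopx -0.28, Scgb1a1 -0.27). The summed interstitial macrophage markers without Apoe ran from 48.8 to 69.0 CPM in wildtype air and from 71.7 to 116.8 in wildtype silica lungs, and from 53.6 to 67.9 and 78.3 to 181.5 in knockout air and silica lungs. The groups did not overlap in either genotype. At 9 months the only marker past the test was Siglecf (-1.01). The part of these cell types in the members' values was not tested.

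The members varied together from mouse to mouse within the 12 groups, although not all of them. After the mean of each group was subtracted, the correlation of a member with the mean of the others over 70 mice ran from -0.08 (Ifit2) to 0.80 (Ifi44). Irf7 and Oasl2 were at 0.79, Lgals3bp at 0.77, Ifit1 at 0.76 and Rtp4 at 0.75, while Rsad2 was at 0.16 and Ifi35 at 0.24. In all, 28 members were above 0.5. Without the 3 mice of 9 months with the most members highest in their group (wildtype silica mouse 5, knockout air mouse 4, knockout silica mouse 1), 13 were above 0.5 over 67 mice. Members in the same stretch of a chromosome did not always move together, with Ifit1 and Ifit3 at 0.64, Ifit1 and Ifit2 at 0.18 and Rsad2 and Cmpk2 at 0.22. These correlations are descriptions, and the points share library depth and scaling.

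Of 14397 genes with a mean of at least 1 CPM, those whose pattern was most like the mean of the members included Oas1g (r = 0.73), H2-T23 (0.71), Ifi27l2a (0.71), H2-K1 (0.65), Tap1 (0.64), Parp9 (0.62), Slfn2 (0.61), Ddx60 (0.61) and Tgtp1 (0.61), over 70 mice. Without the same 3 mice the values were lower, from 0.62 for Oas1g and 0.60 for Tap1 to 0.46 for Ifi27l2a and 0.39 for Ddx60. H2-K1 and H2-T23 encode class I MHC chains, and Tap1 encodes a part of the peptide transporter.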

How the data were processed

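The authors deposited 1 table of raw read counts per gene for 70 lung libraries, 1 per mouse. Per the submitters' processing notes, the tools were HTSeq 0.11.2, SAMtools 1.8, HISAT2 2.1.0 and Cufflinks, with Trimmomatic 0.35 and bcl2fastq 2.19, on build mm10. The annotation and the strand setting of the counting are not given in the sources used here. Per the labels' protocols the libraries were stranded and depleted of ribosomal RNA. Of 24439 rows, 16 exact repeats were dropped. The members and gene lists were chosen with earlier results of these data known. Members are described by adjusted p, by the largest change in each role group or in ranges. Other lists are described by up to 4 genes past the threshold or the 2 with the smallest p, and genes among the 10 most like the members are named. A gene that these rules would name is not reported here.

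Counts were filtered (filterByExpr), scaled (TMM) and tested with edgeR 4.0.16 (R 4.3.3) by quasi-likelihood, with Benjamini-Hochberg adjustment over all genes. Each time was fitted with its 4 groups (12558, 12647 and 12826 genes), and comparisons across times used all 70 libraries (13252 genes). "Both genotypes" is the mean of the 2 genotypes' differences. Normalised CPM used TMM over 70 libraries, and means over members used log2(CPM + 1). The SE was taken from the log2 difference and its F value. DESeq2 1.42.0 was an alternative. Libraries held 802478 to 5596318 counts, and Lars2 took 8.33% of them. In simulated counts for the 1 day joint comparison (12461 genes), 88.1% of genes changed 1.5-fold were recovered. The share was 77.6% at 3 months, 77.6% at 9 months and 62.7% for the silica response at 3 months versus 1 day. Genes with few counts were not among those changed. Each gene was drawn on its own, so no simulated mouse stood apart over many genes as some did at 9 months. The shares do not cover that case. Comparisons within 1 genotype and between the genotypes' responses were not simulated. The labels give each library as 1 mouse, so p-values measure the spread between mice. Promoters came from RefSeq tables.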

Additional observations from a re-analysis of the deposited data

Results flagged for a closer look

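Of 132 groups of mice tested for a single value far from the others, over 10 of the members and the mean of all 37, 9 held one. Pooled over the 3 times, this is near the share of about 1 in 20 that chance alone gives. All 9 lay at 9 months and none at 1 day or 3 months, so the pooled share does not describe any single time. The 132 share mice and members, so they are not independent. In wildtype silica mouse 5, Irf7 was 74.85 CPM against 8.515 to 15.06 in its group mates, Ifi44 was 51.53 against 7.088 to 9.615, and the mean level of the 37 members was 5.629 against 4.169 to 4.452. In wildtype air mouse 5, Lgals3bp was 150.7 CPM against 62.42 to 77.7, and the mean level of the members was 4.487 against 4.103 to 4.191. In knockout air mouse 4, Oasl2 was 32.94 CPM against 12.21 to 15.49 and Lgals3bp was 131.8 against 48.72 to 62.14. In knockout silica mouse 1, Oasl2 was 50.03 CPM against 23.32 to 29.86. The only low value was Eif2ak2 in wildtype air mouse 3, at 28.39 CPM against 44.1 to 49.37.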

How the results depend on the processing

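No called value changed sign under any alternative in the 22 comparisons, and counts of called members within 1.5 times of the reported one are not listed, apart from the ranges with 1 library left out. The number of called members was 10 in wildtype lungs at 1 day when the 2 groups were fitted alone. In knockout lungs at 1 day it was 1 with the 2 groups alone and 2 with all 70 libraries in 1 fit. With all 70 libraries it was 0 in wildtype and 0 in knockout lungs at 3 months, and 2 in both genotypes. In both genotypes at 9 months it was 1 by DESeq2's Wald test, 1 without the low-count filter and 5 with all 70 libraries. Without the 3 air mice of 9 months with the most Chil3, chosen after seeing the data, it was 2 in wildtype lungs, 2 in knockout lungs and 9 in both. It was 1 for knockout against wildtype air lungs at 3 months without the filter and 1 with the 2 groups alone. For air lungs at 9 against 3 months it was 5 without the filter and 0 without the 3 air mice. The cause was not tested. With 1 library left out, called members ran from 3 to 10 and 2 to 6 at 1 day in wildtype and knockout lungs. At 3 months they ran from 2 to 5, 1 to 4 and 7 to 12 in wildtype lungs, knockout lungs and both. They ran from 0 to 1 in both genotypes at 9 months, from 0 to 1 for knockout against wildtype air lungs at 3 months, and from 2 to 11 for air lungs at 9 against 3 months. Calls over all genes moved from 298 to 641 (wildtype) and from 242 to 122 (knockout) at 1 day with the 2 groups alone. At 3 months they moved from 607 to 319 in knockout lungs in that way, and with all 70 libraries from 374 to 190 in wildtype lungs, 607 to 306 in knockout lungs and 1006 to 666 in both. At 9 months they moved from 3, 23 and 31 (wildtype, knockout, both) to 211, 218 and 497 without the 3 air mice, and to 9, 147 and 129 with all 70 libraries. The knockout count at 9 months was 54 by DESeq2 and 14 with the 2 groups alone, and the count in both genotypes was 75 by DESeq2 and 48 without the filter. Between genotypes, DESeq2 called 24, 76 and 25 genes in air at the 3 times against 6, 18 and 2, and 14 and 37 in silica at the first 2 times against 1 and 22. With the 2 groups alone the counts were 125, 68 and 0 in air and 1 and 1 in silica at 3 and 9 months, without the filter 12 and 52 in air at the first 2 times, with all 70 libraries 2, 3 and 78 in air and 0, 2 and 1 in silica, and without the 3 air mice 4 in air and 1 in silica at 9 months. For the difference of the genotypes' responses, 1 gene was called at 3 months under 4 settings, and 2 by DESeq2 and 1 without the 3 air mice at 9 months. Without those mice, calls fell from 97 to 0 for the silica response at 9 against 3 months and from 3875 to 2187 for air lungs, and DESeq2 gave 26 against 15 for air lungs at 3 months against 1 day. Depth limits members with few counts, such as Isg15 and the Oas genes. No paired analysis was possible because each library is a separate mouse and the replicate numbers only follow the order of the samples.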
